A study of Mus musculus with 9 samples.

Results

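The histone genes of the Hist clusters were taken as every entry of the deposited gene table whose symbol begins with Hist1h, Hist2h, Hist3h or Hist4h. These were 69 of 52151 entries, with 63 distinct symbols. Of the 69, 61 held a known transcript and 8 consisted of assembled transcripts only, so that the 61 were used for the comparisons. By symbol they were 4 linker histones (H1), 17 H2A, 18 H2B, 11 H3 and 11 H4 genes, with 51 named for the Hist1 cluster and 8 for Hist2. Of the H2A genes, Hist1h2aj and Hist1h2al are annotated as pseudogenes. Hist1h2al, at chr13:51202727-51203065, lies outside the span of the other Hist1 genes (chr13:21715763-23934851). GENCODE M21 for the mouse build GRCm38 names 70 genes with such symbols, and 7 of them had no entry of that name and were not analysed here.

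Liver total RNA of mice labelled as 8 weeks old was sequenced after 5 weeks of feeding, with 3 libraries in each of 3 groups. Pair-fed mice (PF, labelled C57BL/6) received an isocaloric control liquid diet, and alcohol-fed mice (AF, labelled C57BL/6) received the Lieber-DeCarli diet. The mice of the AF with MNA group received the Lieber-DeCarli diet and intraperitoneal MNA at 50 mg/kg, and their strain labels read C57BL/7, C57BL/8 and C57BL/9. The methods describe male C57BL/6J mice, and the abbreviation MNA is used as the labels give it. Whether each library came from its own mouse is not said in the labels, so that the p-values measure the spread between these libraries, which may be technical. Hepatocyte albumin (Alb) lay between 10882 and 17386 FPKM in the 9 libraries. For lncRNA transcripts, 1 FPKM corresponded to a mean coverage of 5.84 to 8.30 reads per base, depending on the library. The summed FPKM of lncRNA transcripts inside introns was 9433 in AF replicate 3 and 8934 in AF with MNA replicate 1, and 2477 to 4937 in the other 7 libraries.

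Core histones H2A, H2B, H3 and H4 form the nucleosome, around which DNA is wrapped, and H1 binds the DNA between nucleosomes. The genes of the Hist clusters are mostly replication-dependent: they are transcribed in S phase, when new DNA must be packed, and their mRNAs end in a conserved stem-loop in place of a poly(A) tail. The stem-loop is bound by SLBP, which governs the processing, translation and decay of the mRNA. Adult liver divides little, and some of these genes can also give spliced or polyadenylated transcripts outside S phase. mRNAs without a poly(A) tail are lost when poly(A) RNA is selected, whereas the libraries here were depleted of ribosomal RNA.

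The stem-loop was searched in the known transcripts, since it is the feature that sets these mRNAs apart from polyadenylated ones. A stem of 6 bases that begins with GG, a loop of 4 bases and the exact reverse complement of the stem were required within 100 bases after the stop codon. Of 42 transcripts with at least 60 bases annotated after the stop codon, 37 held such a structure, at 21 to 58 bases from the stop codon. The same search found it in 0.341% of 20524 other coding genes. The following stretches, 5′ to 3′ on the strand of the gene in GRCm38, show it for the members on which the results turn, with the 16 bases of the stem-loop in capitals.
Hist2h2aa2, chr3:96239777-96239806, minus strand: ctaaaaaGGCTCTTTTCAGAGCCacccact
Hist2h2ac, chr3:96220411-96220440, minus strand: ccaaaaaGGCTCTTTTTAGAGCCaccaaat
Hist1h2bg, chr13:23571836-23571865, plus strand: acccaaaGGCTCTTTTCAGAGCCacccata
Hist1h1c, chr13:23739505-23739534, plus strand: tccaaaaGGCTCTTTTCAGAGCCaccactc
Hist1h3b, chr13:23752813-23752842, plus strand: acccaaaGGCTCTTTTCAGAGCCacccaca
Hist1h3e, chr13:23561896-23561925, minus strand: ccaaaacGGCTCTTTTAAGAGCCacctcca
Hist1h4h, chr13:23531451-23531480, plus strand: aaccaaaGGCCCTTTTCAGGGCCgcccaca
Hist1h4d, chr13:23581943-23581972, plus strand: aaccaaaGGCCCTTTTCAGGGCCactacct
Hist1h4c, chr13:23698082-23698111, minus strand: aacaaaaGGCCCTTTTCAGGGCCacccaca
Hist2h4, chr3:96262932-96262961, minus strand: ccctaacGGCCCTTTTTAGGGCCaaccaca
Hist1h4f, chr13:23551284-23551313, minus strand: tctcaaaGGCCCTTTTCAGGGCCacccact

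The stem-loops fell into 8 distinct sequences. The form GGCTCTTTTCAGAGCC was shared by 20 members of the H1, H2A, H2B and H3 classes, and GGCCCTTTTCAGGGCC by 7 H4 genes. No H4 gene carried the first form, and no gene of another class carried the second. The structure was not found in Hist1h2bc, an H2B gene with 742 annotated bases after the stop codon in a transcript of 2 exons, nor in Hist2h2be, Hist1h2br and Hist1h2bq. The other 22 transcripts have under 60 bases annotated after the stop codon, and 2 of those held it.

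A few genes carried most of the histone signal. Hist2h2aa2 (H2A, chr3:96239749-96240276) had 57.92, 54.21 and 47.37 FPKM in the PF group, 37.32, 34.97 and 63.25 in the AF group, and 53.10, 55.49 and 41.64 in the group given MNA. Hist1h4h (H4, chr13:23531050-23531519) had 50.25, 38.19 and 44.80 FPKM in the PF group, 37.72, 42.74 and 51.27 in the AF group, and 42.06, 57.81 and 46.90 in the group given MNA. Hist1h2bc (H2B, chr13:23684199-23692908) had 56.37, 43.06 and 43.07 FPKM in the PF group, 41.43, 34.37 and 44.06 in the AF group, and 35.88, 62.23 and 49.40 in the group given MNA. All 3 groups overlapped for each of these genes. Together they made up 49.5% to 72.0% of the summed FPKM of the 61 members, with a median of 57.4% over the libraries. No 100-base stretch of Hist2h2aa2 is found in that gene alone, since its copy Hist2h2aa1 is identical there, so that its value may hold reads of both. The summed FPKM of all members was 0.0974% to 0.146% of the summed FPKM of all entries with a gene name and a known transcript.

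**Figure D1:**
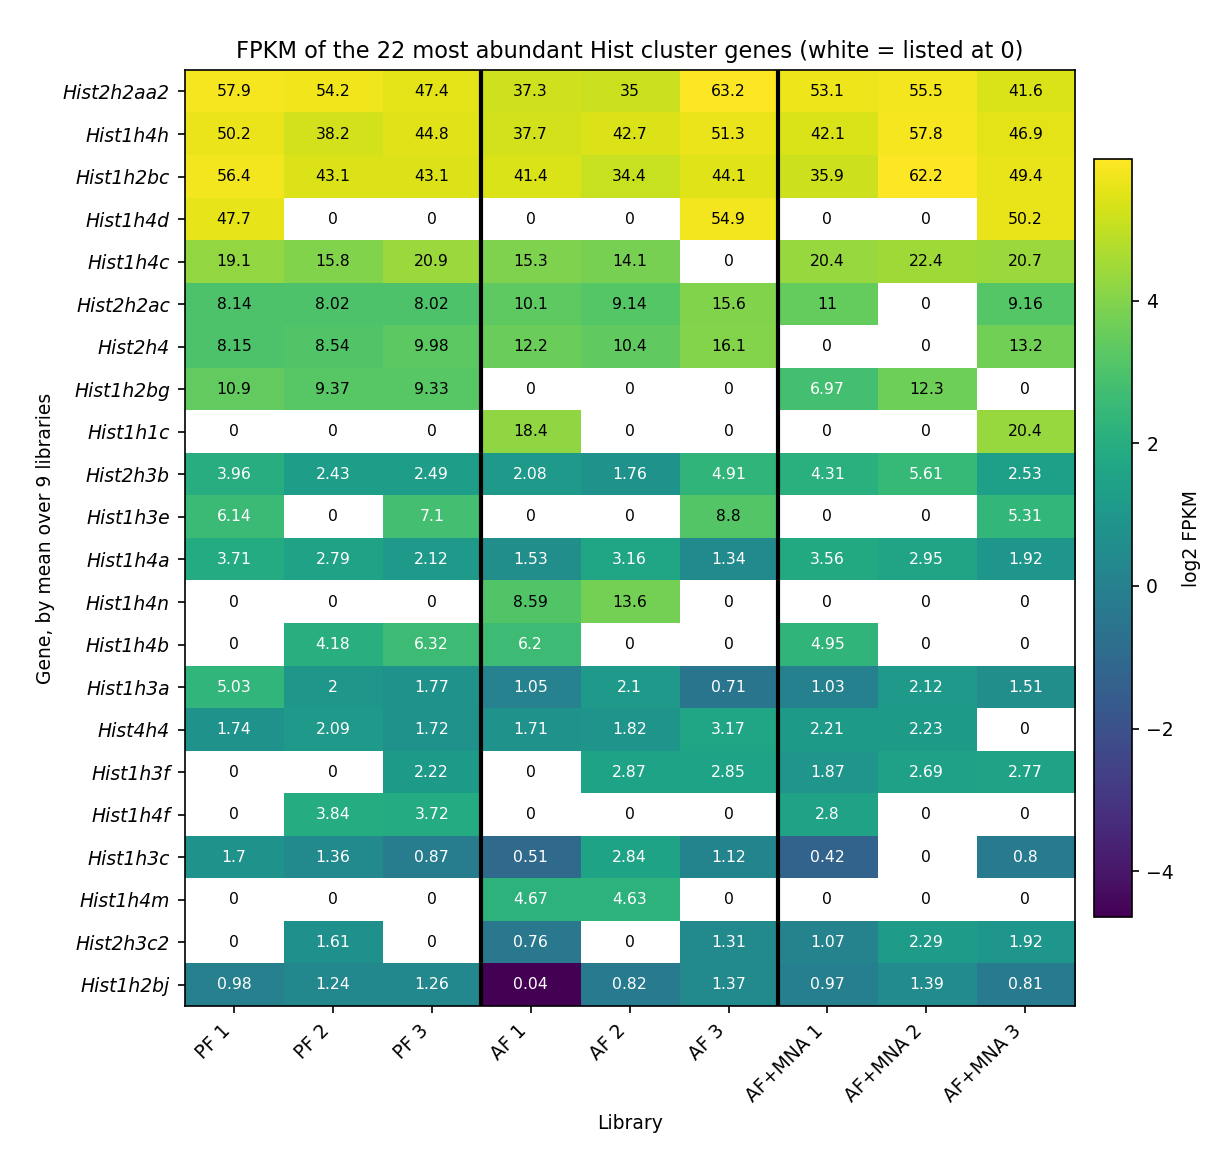
FPKM of the 22 most abundant histone genes of the Hist clusters (rows, ordered by their mean over the 9 libraries) in each library (columns, 3 per group); colour gives log2 FPKM and white cells marked 0 are values listed at 0. The 3 genes at the top are at 34.37 FPKM or more in every library, whereas Hist1h4d lies between 47.74 and 54.88 FPKM in 3 libraries and is listed at 0 in the other 6.

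Below these genes the levels fell quickly. Of the 61 members, 5 averaged 10 FPKM or more, 9 lay between 2 and 10, 17 between 0.5 and 2, and 30 under 0.5 FPKM. The most abundant H3 gene, Hist2h3b, had 3.96, 2.43 and 2.49 FPKM in the PF group, 2.08, 1.76 and 4.91 in the AF group, and 4.31, 5.61 and 2.53 in the group given MNA, with overlapping groups. Hist1h4a, an H4 gene, ranged from 1.34 to 3.71 FPKM and was above 0 in all libraries. The lone member of the Hist4 cluster, Hist4h4, ranged from 1.71 to 3.17 FPKM in 8 libraries and was listed at 0 in AF with MNA replicate 3. Hist3h2ba, the lone member of the Hist3 cluster with a known transcript, did not exceed 0.22 FPKM.

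In a head-to-head pair an H2A and an H2B gene are transcribed in opposite directions from a short shared stretch. Of 13 such pairs among the members, some of which share a gene, 10 had both means under 1 FPKM (0.162 to 0.987). The count of 13 takes the symbols of the gene table, in which Hist1h2bh and Hist1h2bm name transcripts that GENCODE M21 gives to Hist1h2bq and Hist1h2br, so that Hist1h2ao and Hist1h2ap are each paired under 2 symbols. In the other 3 the levels were most unequal. Hist1h2bc had a mean of 45.5 FPKM, and Hist1h2ac, whose start lies 251 bases away, had a mean of 0.207 FPKM. Hist1h2bg had a mean of 5.43 FPKM against 0.287 for Hist1h2ae, 176 bases away, and Hist2h2ac had 8.80 against 0.249 for Hist2h2be, 239 bases away. The RefSeq promoter of Hist1h2bg, shown because its 300 bases hold the whole stretch between that pair, is written on the plus strand of GRCm38.p6 (chr13:23571150-23571449) with the TATAAA of the TATA box and the CCAAT of the CCAAT box, each on either strand, in capitals.
Hist1h2bg promoter: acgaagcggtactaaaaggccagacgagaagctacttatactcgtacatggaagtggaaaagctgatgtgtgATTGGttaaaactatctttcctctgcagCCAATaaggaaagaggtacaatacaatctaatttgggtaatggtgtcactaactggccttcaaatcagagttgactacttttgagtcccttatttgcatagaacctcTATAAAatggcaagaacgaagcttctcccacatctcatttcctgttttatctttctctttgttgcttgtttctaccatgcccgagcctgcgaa

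On either strand, TATAAA was found in the promoters of 29 of the 53 members with an entry in the RefSeq table, or 54.7%, against 14.1% of 26972 other promoters of the same length. CCAAT was found in 46 of the 53, or 86.8%, against 37.8% of the other promoters.

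Several members were either listed at 0 or lay within a narrow range. Hist1h4d (H4, chr13:23581598-23582735) had 47.74 FPKM in PF replicate 1, 54.88 in AF replicate 3 and 50.23 in AF with MNA replicate 3, with the other 6 libraries at 0. The 3 libraries with a value came from 3 different groups and differed by 1.15-fold at most. Hist1h4c (H4) had 19.10, 15.79 and 20.95 FPKM in PF, 15.29 and 14.06 in AF with AF replicate 3 listed at 0, and 20.40, 22.36 and 20.66 in AF with MNA. Hist1h1c, the most abundant of the 4 linker histone members, had 18.37 FPKM in AF replicate 1 and 20.42 in AF with MNA replicate 3, with the other 7 libraries at 0. Hist1h3e (H3) had 6.14 and 7.10 FPKM in PF replicates 1 and 3, 8.80 in AF replicate 3 and 5.31 in AF with MNA replicate 3, with the other 5 at 0.

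In all, 45 of the 61 members were listed at 0 in at least 1 library, and 16 were above 0 in all 9. In 14 of the 45, at least 1 group had no value above 0. For 16 of the 45 every value above 0 was at least 1 FPKM, and these values differed by no more than 2.19-fold within a gene. Hist1h1d had only 1 value above 0, and Hist1h1c, Hist1h4n, Hist1h4m and Hist1h2ab had 2, which by itself keeps the range narrow. The share of other genes with this pattern was not measured. The 16 comprised 8 H4, 3 H3, 2 H2A, 1 H2B and 2 H1 genes. The number of members at 0 ranged from 12 in AF replicate 1 to 30 in AF with MNA replicate 2. It was 16 to 24 in PF, 12 to 19 in AF and 18 to 30 in AF with MNA, and the groups overlapped.

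To set this beside the rest of the table, entries were taken that reached 2 FPKM in 3 or more of the 9 libraries. Of 16 members that did, 10 (62.5%) were listed at 0 in some library. Among other entries whose known transcripts have 1 exon it was 147 of 500 (29.4%), and among other entries with a transcript of 2 or more exons 25 of 7388 (0.338%). At 10 FPKM the counts were 4 of 7 members, 44 of 142 other entries of 1 exon and 4 of 1847 entries of 2 or more exons. Within the 61 members, 4 of the 5 with a transcript of 2 or more exons (Hist1h2bc, Hist1h2be, Hist1h2bq and Hist1h2br) were above 0 in all 9 libraries, against 12 of the 56 with 1 exon. The exception, Hist2h2bb, had 0.08 FPKM in AF replicate 1 alone, and its entry also holds the 2-exon transcript that GENCODE M21 names Gm42743, a lncRNA, so that neither its exon count nor its value is the histone gene's own.

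**Figure D2:**
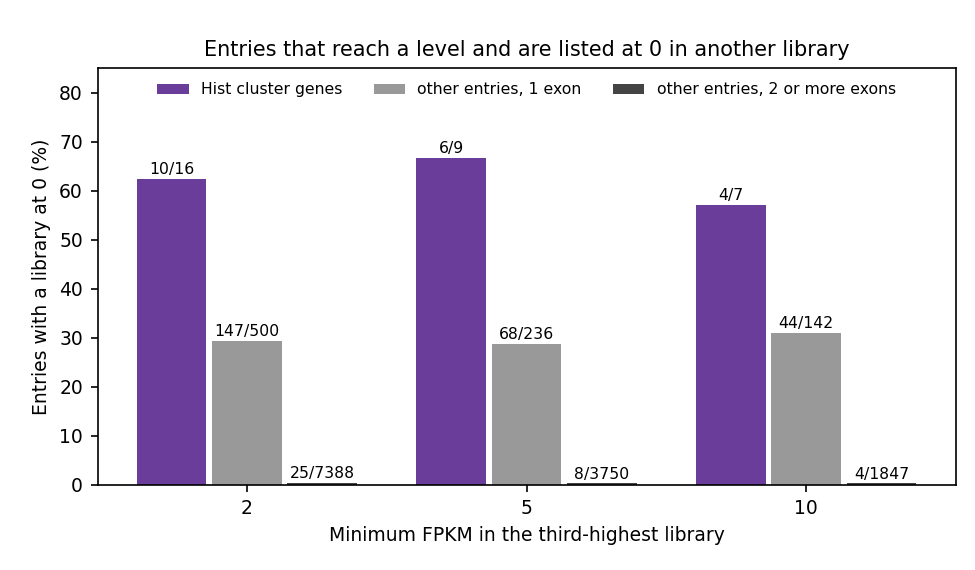
Share of entries listed at 0 in at least 1 library (y axis, percent), among entries that reached 2, 5 or 10 FPKM in 3 or more of the 9 libraries (x axis), for the histone genes of the Hist clusters, other entries of 1 exon and other entries of 2 or more exons; the fractions above the bars give the counts. At 2 FPKM the share is 62.5% for the histone genes, 29.4% for other entries of 1 exon and 0.338% for entries of 2 or more exons.

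Near-identical sequence was measured as the share of 100-base stretches of a transcript found in no other gene. In the 16 genes that were either at 0 or at least at 1 FPKM this share ran from 11.9% (Hist1h4m) to 100% (Hist1h4d and Hist2h4), with a median of 73.8%, and it exceeded 80% in 8 of them. The coding parts of members of a class are close to each other: among pairs of equal length the median identity was 93.9% for H4, 97.6% for H3, 97.6% for H2B and 97.8% for H2A genes. Hist1h2bc and Hist1h2bg differ at 5 of 381 coding bases. RNAs that every cell uses showed the same kind of value: Rn7sk, the 7SK RNA that restrains transcription elongation, had 2041 to 3181 FPKM in 7 libraries and was listed at 0 in AF with MNA replicates 2 and 3. A 0 of a single gene is therefore reported only as listed, and no fold change against a group at 0 is given.

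Summed over the members of a class, the levels of the groups overlapped for H1, H2A, H3 and H4. The H2A sum was 73.8, 68.2 and 62.0 FPKM in the PF group, 49.9, 49.7 and 82.0 in the AF group, and 68.5, 64.5 and 55.0 in the group given MNA. The H4 sum was 132, 77.0 and 89.6 FPKM in the PF group, 88.4, 91.4 and 127 in the AF group, and 76.5, 86.4 and 134 in the group given MNA. The libraries highest in H4 in each group, PF replicate 1, AF replicate 3 and AF with MNA replicate 3, are those in which Hist1h4d was above 0. The H3 sum ran from 7.17 to 23.2 FPKM with both ends in AF. The H1 sum was 22.4 FPKM in AF replicate 1 and 20.9 in AF with MNA replicate 3, and at most 1.26 elsewhere. For H2B the sums were 71.7, 55.9 and 57.5 FPKM in the PF group, 46.1, 39.3 and 50.3 in the AF group, and 47.1, 80.1 and 53.7 in the group given MNA. The 3 AF values lay below the 3 PF values, with a log2 ratio of the means of -0.45, and of -1.43 without Hist1h2bc. Both ratios hold the values of Hist1h2bg, which is listed at 0 throughout AF. Summed without that gene, H2B had 60.8, 46.6 and 48.2 FPKM in PF against 46.1, 39.3 and 50.3 in AF, a log2 ratio of -0.20, and the groups overlapped. Over the 7 H2B genes above 0 in all 9 libraries the ratio was -0.26, with 45.6 to 59.2 FPKM in PF and 36.5 to 47.0 in AF, and the groups overlapped. In bulk liver, fewer cells of a type and less RNA per cell cannot be told apart.

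**Figure D3:**
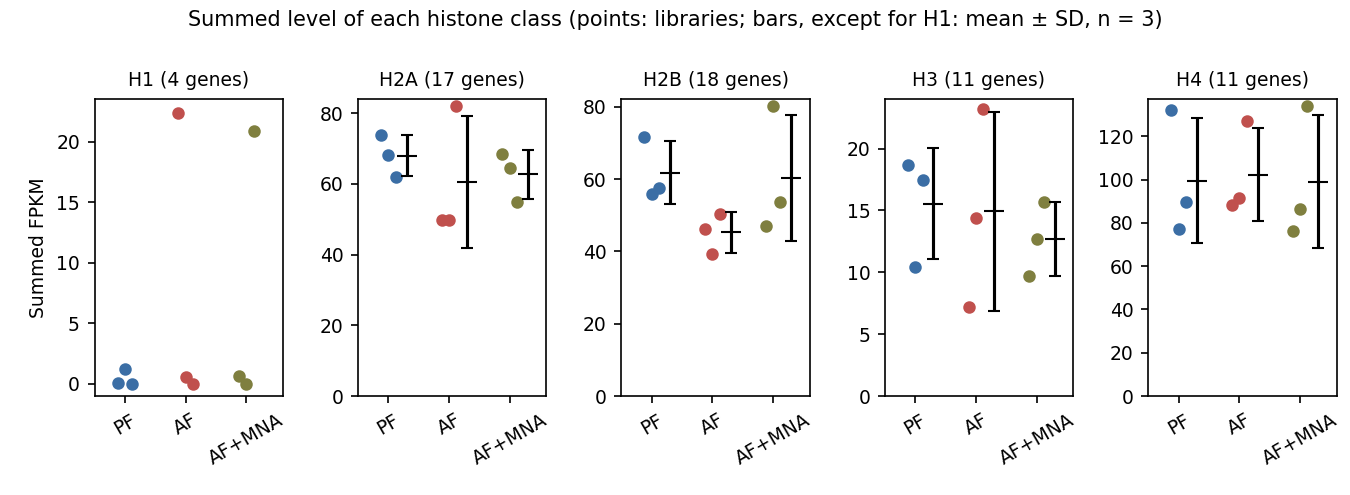
Summed FPKM (y axis) of the histone genes of each class in PF, AF and AF with MNA; points are libraries and bars, drawn for all classes but H1, are the mean ± SD of 3 libraries. The AF values of H2B (39.3 to 50.3 FPKM) lie below the PF values (55.9 to 71.7 FPKM), which they overlap when Hist1h2bg is left out, and the groups overlap in the other classes.

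The AF group was compared with the PF group to ask which members changed with alcohol feeding. With limma on log2(FPKM + 1), 32 members averaged 0.5 FPKM or more in the 6 libraries and were tested among 12268 genes. A member passed the threshold where the unadjusted p was below 0.05 and the group means differed by more than 1 on the log2 scale, and a group listed at 0 throughout was counted as differing by more than that. It was passed by 5 members, 2 higher and 3 lower in AF, where 4.30% of all tested genes passed (1.95% higher and 2.35% lower). In 4 of the 5, 1 whole group was listed at 0, as in 3.04% of all genes that passed. These 4 reached the level for testing through the other group alone, so that the fold part of the threshold was met by the listed zeros, and nothing is read from the count. Of all genes that passed, 9.30% were listed at 0 in some of the 6 libraries. Among members above 0 in all 6, 1 of 16 passed, beside 4.01% of all genes so filtered. An unadjusted p under 0.05 was reached by 6 of the 32 members, beside 11.7% of all tested genes, and the median coefficient of the 32 members was -0.05, beside -0.03 for all tested genes. The groups did not overlap for 7 members, beside 18.3% of all tested genes. An adjusted p under 0.05 was reached by 0.326% of tested genes and by 1 member, 1 of the 4 with a whole group at 0.

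That member was Hist1h2bg (H2B, ENSMUST00000079251, chr13:23571396-23572013), which the study placed in its ceRNA network and so chose on these libraries. It had 10.92, 9.37 and 9.33 FPKM in PF while all 3 AF libraries list it at 0 (limma, adjusted p = 0.000358). It was tested through its PF values alone, and the 3 zeros of AF have no spread, so that the p describes listed values and is not taken as a measure of a change. In AF with MNA it had 6.97 and 12.30 FPKM in replicates 1 and 2 and was listed at 0 in replicate 3. The exact permutation test gave p = 0.1, the smallest that 3 against 3 libraries allow. Of its 100-base stretches, 55.1% are found in no other gene. A separate assembled entry with the same symbol had 0.82 FPKM in PF replicate 3, 0.30 and 0.60 in AF replicates 2 and 3, 1.22 and 0.15 in AF with MNA replicates 1 and 2, and 0 in the other 4 libraries. With all 9 libraries in one limma fit the adjusted p of Hist1h2bg was 0.115, and over all settings tried it ran from 0.000246 to 0.115.

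The other 4 members past the threshold did not pass by adjusted p. Hist1h4n and Hist1h4m (H4) had no value above 0 in PF, and read 8.59 and 13.63, and 4.67 and 4.63 FPKM, in AF replicates 1 and 2, with AF replicate 3 at 0 (limma, unadjusted p = 0.0423 and 0.0415; adjusted p = 0.404 for both). Every AF with MNA library also lists both at 0, and only 19.3% and 11.9% of their 100-base stretches are their own. Another entry named Hist1h4m, of an assembled transcript only and not tested here, was above 0 in all 9 libraries. PF libraries gave it 0.88 to 2.07 FPKM, those of AF 0.36 to 2.15 and those given MNA 0.75 to 1.64, with overlapping groups. The zeros of Hist1h4m are thus those of its known transcript alone. Hist1h4f (H4) had 3.84 and 3.72 FPKM in PF replicates 2 and 3 and was listed at 0 in PF replicate 1 and all of AF (limma, unadjusted p = 0.0419, adjusted p = 0.404). Hist1h2ap (H2A) was the member above 0 in all 6 libraries that passed, lower in AF: it had 1.59, 0.92 and 0.69 FPKM in PF and 0.51, 0.38 and 0.49 in AF, a log2 ratio of -1.21 (limma, unadjusted p = 0.0321, adjusted p = 0.381). Its call was lost in the fit of all 9 libraries, with all entries of the gene table and with the limma coefficient as fold change. It was also lost when any library but PF replicate 3 was left out (limma, unadjusted p = 0.0532 to 0.0848 without 1 library). Without PF replicate 1 its coefficient went from -0.48 to -0.30. Hist1h4f, Hist1h4m and Hist1h4n likewise lost the call without 5 of the 6 libraries (limma, unadjusted p = 0.0820 to 0.134). With all libraries kept, these 3 genes lost it with any value above 0. Hist1h4f also lost it with a pseudocount of 0.1 and in the fit of all 9 libraries. Of the 100-base stretches of Hist1h2ap, 7.83% are found in no other gene, and its AF with MNA values were 0.57, 1.55 and 0.38 FPKM.

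For 3 abundant members the groups lay apart, by less than the fold the threshold asks. Hist1h4c (H4) was lower in each AF library than in any PF library, with AF replicate 3 listed at 0 (limma, unadjusted p = 0.163, adjusted p = 0.594). Hist2h4 (H4) had 8.15, 8.54 and 9.98 FPKM in PF and 12.22, 10.44 and 16.06 in AF, without overlap (log2 ratio 0.54, limma, unadjusted p = 0.0343, adjusted p = 0.388). Hist2h2ac (H2A) had 8.14, 8.02 and 8.02 FPKM in PF and 10.09, 9.14 and 15.64 in AF, also without overlap (log2 ratio 0.53, limma, adjusted p = 0.460). Without AF replicate 3 the coefficient of Hist2h2ac went from 0.44 to 0.23. In the fit of all 9 libraries its unadjusted p by limma was 0.600. Hist2h4 and Hist2h2ac were higher in each AF library than in any PF library. Across the 16 members above 0 in all 6 libraries the median limma coefficient was -0.26, beside -0.03 for all tested genes, and with each library scaled to the same median it was -0.22 beside 0.00. Some of the 16, such as Hist1h2ap, share most of their 100-base stretches with other genes and may share reads.

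**Figure D4:**
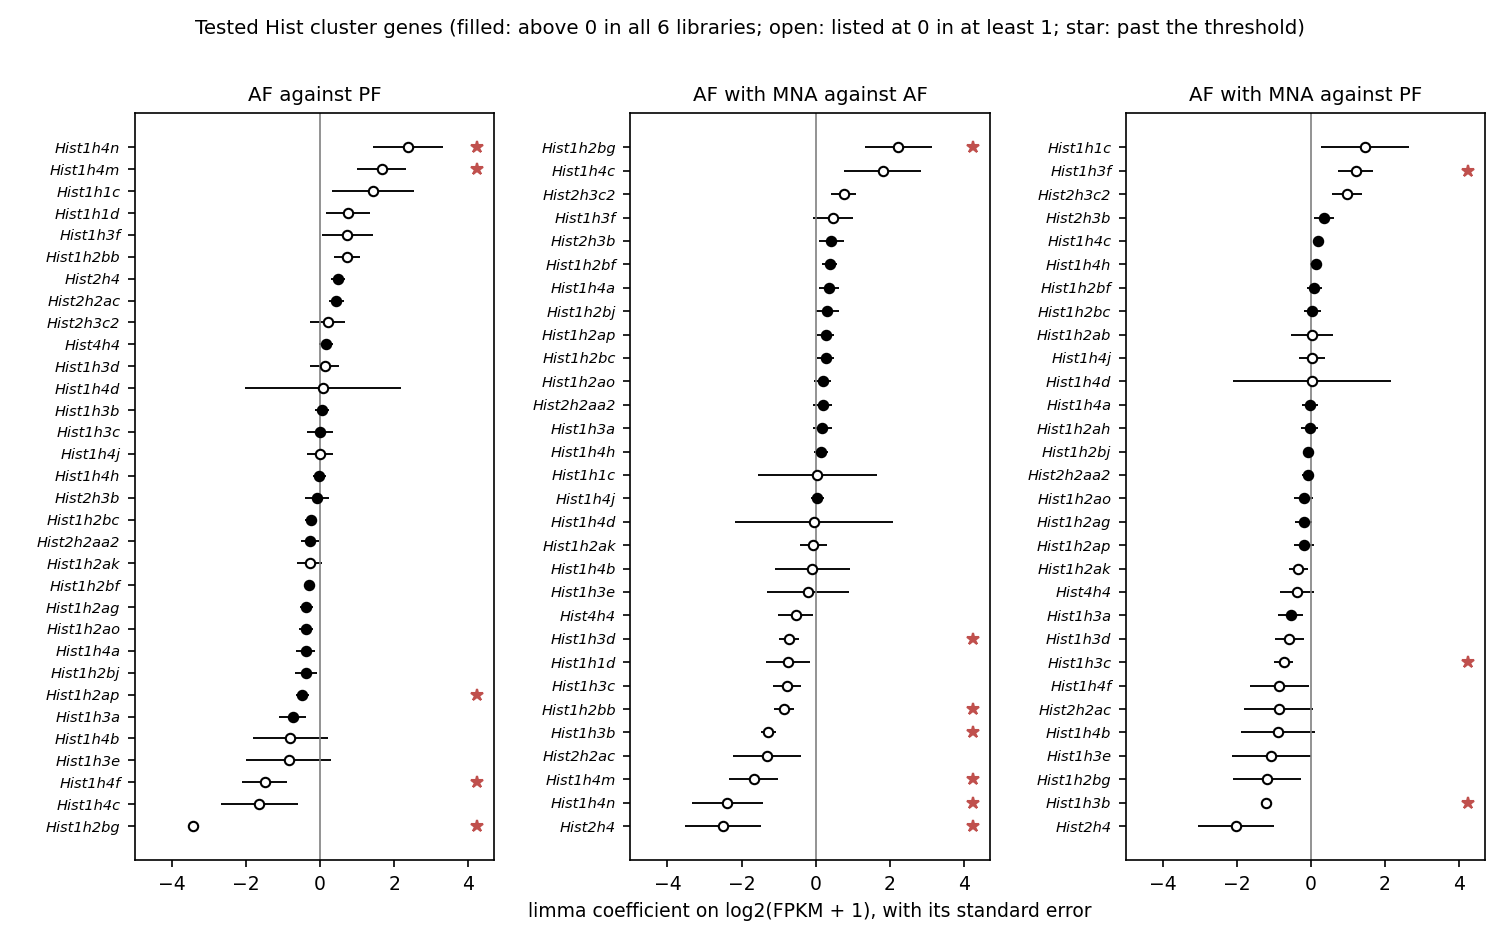
limma coefficient on log2(FPKM + 1), with its standard error (x axis), of each tested histone gene (y axis) in the 3 comparisons; filled points are genes above 0 in all 6 libraries, open points were listed at 0 in at least 1, and stars mark genes past the threshold. Among the starred genes only Hist1h2ap, in AF against PF, is filled.

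The AF with MNA group was compared with AF to ask which members differed when MNA was given with alcohol. In this comparison 30 members were tested among 12214 genes, and 7 passed the threshold, 1 higher and 6 lower in AF with MNA, where 1.98% of all tested genes passed (1.03% higher and 0.950% lower). In 4 of the 7, 1 whole group was listed at 0, as in 11.6% of all genes that passed, and nothing is read from the count. All 7 were listed at 0 in some of the 6 libraries, as were 25.2% of all genes that passed, and of 11 members above 0 in all 6 none passed (0 at an unadjusted p under 0.05 by limma), beside 1.53% of all genes so filtered. No member reached an adjusted p under 0.05 by limma, which 0.0491% of tested genes did, and 7 of 30 had an unadjusted p under 0.05, beside 5.22% of all tested genes. Groups did not overlap for 3 members, beside 10.1% of all tested genes. The median coefficient of the members was 0.05, beside 0.01 for all tested genes. Over the 11 members above 0 in all 6 libraries it was 0.27, beside 0.01 for all genes so filtered.

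The member that was higher was Hist1h2bg, through AF with MNA replicates 1 and 2 (limma, unadjusted p = 0.0444, adjusted p = 0.940). Among the lower ones, Hist1h3b (H3) had 1.10, 2.30 and 1.05 FPKM in AF and was listed at 0 in all 3 AF with MNA libraries, which have no spread (limma, unadjusted p = 0.000507, adjusted p = 0.340). Hist2h4 had 13.20 FPKM in AF with MNA replicate 3 and was listed at 0 in replicates 1 and 2, so that its value above 0 lay among the AF values (limma, unadjusted p = 0.0459, adjusted p = 0.940). Hist1h2bb (H2B) had 1.05, 1.23 and 1.39 FPKM in AF and 0.86 FPKM in AF with MNA replicate 1, with the other 2 at 0 (limma, unadjusted p = 0.0147, adjusted p = 0.940). Hist1h3d (H3) had 0.67, 1.63 and 0.51 FPKM in AF, and 0.53 FPKM in AF with MNA replicate 3 with the other 2 at 0 (limma, unadjusted p = 0.0366, adjusted p = 0.940). Hist1h4m and Hist1h4n passed through their values in AF replicates 1 and 2 (limma, unadjusted p = 0.0424 and 0.0432). When single libraries were left out, Hist1h2bg, Hist1h4m, Hist1h4n and Hist2h4 lost the call without 5 of 6 and Hist1h3d without 3 of the 5 with which it was tested. With all libraries kept, the first 4 lost it with any value above 0, and Hist1h2bg also with a mean of at least 2 FPKM. Hist1h2bb and Hist1h3d lost it with the limma coefficient as fold change. Hist1h3d also lost it in the fit of all 9 libraries, with the replicate block and with all entries of the gene table.

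Between AF with MNA and PF, which share these libraries with the comparisons above, 30 members were tested among 12276 genes. The threshold was passed by 3 members, 1 higher and 2 lower, where 3.89% of all tested genes passed (1.94% higher and 1.95% lower). All 3 were listed at 0 in some library, as were 12.8% of all genes that passed, and of 13 members above 0 in all 6 none passed (0 at an unadjusted p under 0.05 by limma), beside 3.49% of all genes so filtered. By limma's unadjusted p under 0.05 alone, 3 of 30 members passed, beside 14.5% of all tested genes. An adjusted p under 0.05, which 0.432% of tested genes reached, was given for Hist1h3b: it had 1.45, 1.19 and 1.37 FPKM in PF, was listed at 0 in AF with MNA, and ran from 1.05 to 2.30 FPKM in AF (limma, adjusted p = 0.0119). It was tested through its PF values alone and 3 listed zeros form the other group, as in 3.98% of all genes that passed, so that this p too describes listed values only. Over the settings tried, its adjusted p by limma ran from 0.0113 to 0.158. Hist1h3c (H3) had 1.70, 1.36 and 0.87 FPKM in PF and 0.42, 0 and 0.80 in AF with MNA (limma, unadjusted p = 0.0235, adjusted p = 0.279). Hist1h3f (H3) had 2.22 FPKM in PF replicate 3 with the other PF libraries at 0, and 1.87, 2.69 and 2.77 FPKM in AF with MNA (limma, unadjusted p = 0.0410, adjusted p = 0.326). Hist1h3c lost the call without 4 and Hist1h3f without 5 of the 6 libraries. Both also lost it in the fit of all 9 libraries, and Hist1h3c with a pseudocount of 0.1 and with the limma coefficient as fold change. Groups did not overlap for 2 members, beside 21.4% of all tested genes, and the median coefficient was -0.14, beside -0.02. Over the 13 members above 0 in all 6 libraries the median coefficient was -0.04, beside -0.02 for all genes so filtered.

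Genes that act on histones or with them were read beside the members. The list of histone mRNA 3′ end processing factors, among them SLBP and the U7 snRNP proteins LSM10 and LSM11, had 16 tested genes. None passed the threshold in any comparison by limma, and 0, 0 and 1 had an unadjusted p under 0.05 in AF against PF, AF with MNA against AF and AF with MNA against PF. Its most abundant gene was Upf1, a helicase of RNA decay, with 8.15 to 13.1 FPKM. Of the 18 tested histone chaperones, which carry histones to DNA, none passed in any comparison, with 1, 0 and 0 at an unadjusted p under 0.05. Rbbp7, the most abundant of them, lay between 12.7 and 15.9 FPKM.

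Replication-independent variants are also made outside S phase, and their mRNAs are mostly polyadenylated. Of their 9 tested genes none passed in AF against PF (3 at an unadjusted p under 0.05) or in AF with MNA against AF (0), and 1 passed in AF with MNA against PF. Leaving out 1 library gave 0 or 1 in each comparison: in AF against PF it was 1 without PF replicate 1 or AF replicate 1, and with the replicate number as a block, in AF with MNA against AF it was 1 without AF replicate 1, and in AF with MNA against PF it was 0 without any library but AF with MNA replicate 2, and in the fit of all 9 libraries. H3f3b, which encodes the variant H3.3, was the most abundant, with 21.2 to 25.5 FPKM in PF, 14.7 to 40.0 in AF and 10.5 to 19.3 in AF with MNA (limma, adjusted p = 0.387 in AF with MNA against PF). The gene that passed, H1f0, a linker histone of non-dividing cells, had 25.1, 24.8 and 26.9 FPKM in the PF group, 24.5, 0 and 19.1 in the AF group, and 0, 23.0 and 0 in the group given MNA (limma, adjusted p = 0.323). H1f0 thus showed values of the same kind as the members.

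The genes of S phase and proliferation were low in these livers. Of 37 entries, 19 reached the level needed for testing in AF against PF, and none passed in that comparison (3 at an unadjusted p under 0.05) or in AF with MNA against AF (1). In AF with MNA against PF 2 of 21 passed. Leaving out any 1 library gave counts of 1 to 3 in the first comparison, 0 or 1 in the second and 0 to 4 in the third. Cdkn1a, which encodes the cell cycle inhibitor p21, rose from 0.790, 0.630 and 0.170 FPKM to 4.96, 1.23 and 8.39 (log2 ratio 3.20, limma, unadjusted p = 0.0152, adjusted p = 0.257), with 4.74, 32.8 and 0.270 FPKM in AF. E2f1, a transcription factor of S phase entry, fell by 1.26 on the log2 scale (limma, unadjusted p = 0.0225, adjusted p = 0.276). Ccnd1, encoding cyclin D1, was the most abundant of the list, with 6.17 to 13.2 FPKM in PF, 3.29 to 5.99 in AF and 4.89 to 10.3 in AF with MNA.

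Of 9 other RNAs without a poly(A) tail, 7, 7 and 6 were tested in the 3 comparisons. None of the 7 passed in AF against PF (0 at an unadjusted p under 0.05 by limma), 1 of 7 in AF with MNA against AF and 3 of 6 in AF with MNA against PF. Without 1 library the counts ran from 0 to 1, 0 to 1 and 0 to 2. In the first comparison it was 1 without PF replicate 1 and with the replicate block, in the second 0 without AF replicate 1 or 3 or AF with MNA replicate 2 or 3, and in the third 0 without PF replicate 2 or 3 or AF with MNA replicate 3. Rn7s1, the 7SL RNA of the signal recognition particle, was listed at 0 in 6 libraries and had 11490 FPKM in AF replicate 3, 6347 in AF with MNA replicate 1 and 8010 in AF with MNA replicate 3. Vaultrc5, a vault RNA, had 29.2 FPKM in AF replicate 2, 33.2, 1.41 and 47.9 in AF with MNA, 1.17 in PF replicate 1 and 0 in the other 4. Rn7sk passed in both comparisons with AF with MNA through the 2 libraries at 0, with all libraries kept.

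The markers of liver cell types gave few calls. In AF against PF the hepatocyte list had Tat, a tyrosine-degrading enzyme, higher (log2 ratio 1.24, limma, adjusted p = 0.393), a call lost without PF replicate 1, PF replicate 3 or AF replicate 2, while the median coefficient of the list and that of Alb were both -0.06. In the same comparison the erythroid list had Alas2, the erythroid enzyme of heme synthesis, lower (log2 ratio -1.86, limma, adjusted p = 0.108), while the median coefficient of that list was 0.24 and Hbb-bs, a beta globin, had a log2 ratio of 0.43 (limma, adjusted p = 0.747). Alas2 was also lower in AF with MNA than in PF (log2 ratio -1.17, limma, adjusted p = 0.275), a call lost without PF replicate 2, PF replicate 3 or AF with MNA replicate 1. None of the tested markers of macrophages (4 of 4), endothelial cells (4 of 4), stellate cells (5 or 6 of 6), lymphocytes (1 of 7) and cholangiocytes (1 of 4) passed in the main fit (mean of 0.5 FPKM or more, all libraries kept) of any comparison. Without 1 library, 1 marker passed at most in a list: of macrophages and stellate and endothelial cells in AF against PF, of hepatocytes, erythroid and stellate cells in AF with MNA against AF, and of endothelial cells in AF with MNA against PF. At an unadjusted p under 0.05 by limma there were 1, 0 and 2 endothelial, 2, 0 and 0 stellate, 2, 1 and 0 hepatocyte and 1, 0 and 1 erythroid markers in the 3 comparisons, and 0 of macrophages, lymphocytes and cholangiocytes. The 4 neutrophil markers were too low to be tested, with summed levels of 0.170 to 0.760 FPKM in PF, 0.840 to 1.41 in AF and 0.260 to 0.670 in AF with MNA. The AF sums lay above the PF sums. Their part in the values of the members was not tested.

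Over the 9 libraries, the summed level of the members was most like that of Atrx, a chromatin remodeller (Spearman rho 0.76), Lsm1 (0.68), Scarna2 (0.62), Vsig4 (0.62) and Tyms (0.60), among 95 genes of the lists with a mean of 0.5 FPKM or more. These correlations are a description over 9 libraries that share their scaling, and Tat had the lowest rho, -0.80.

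The lncRNA table held 30 transcripts within the spans of the clusters, 16 known and 14 assembled. The library protocol marks the second cDNA strand, and 4 transcripts overlapped a member on the opposite strand. The most abundant of these 4, Gm20632 on the plus strand opposite Hist2h2aa2, had 0.618, 0.355 and 0.264 FPKM in the PF group, 0.254, 0.281 and 0 in the AF group, and 1.15, 0.572 and 0.591 in the group given MNA, where Hist2h2aa2 had 34.97 to 63.25. Of the 30, 6 reached 1 FPKM in at least 3 libraries. None of the 4486 circRNAs had a host gene of the Hist clusters.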

How the data were processed

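The authors depleted ribosomal RNA, made libraries with a U-marked second strand and, per the labels' processing notes, used cutadapt 1.9, HISAT2, TopHat, StringTie 1.3.4 and edgeR. The genome build of the gene table is not given in the sources used here. Of 16 known lncRNA transcripts in the clusters, 14 had the same start and end in GENCODE M21 (GRCm38). The gene and lncRNA FPKM values were made by the authors with StringTie from transcripts merged across libraries. The deposited lncRNA table also holds each transcript's mean read coverage, a signal not scaled for depth. Each deposited circRNA count is a number of junction reads, beside a normalized signal, and only the host genes were used here.

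Groups came from the sample titles. The fits ran over all entries with a gene name, a known transcript and an average of 0.5 FPKM or more in the compared libraries, with moderated linear models of limma 3.58.1 (trended prior variance) in R 4.3.3 on log2(FPKM + 1), 2-sided, with Benjamini-Hochberg adjustment. Fold changes were taken between mean FPKMs of the groups and put on the log2 scale, a group at 0 throughout counting as past the threshold of 1, and the coefficient, on the scale with a pseudocount of 1, understates changes of low genes. The limma script was tested on simulated data. Exact permutation tests and rank correlations used scipy 1.17.1, tables pandas 2.3.3 and figures matplotlib 3.10.9. Sequences came from GENCODE M21 and the RefSeq promoter table (GRCm38.p6). The members and lists were chosen with earlier results of these data known. Named were the 12 most abundant members, every member past a threshold, Hist1h2bg, the most abundant member of each class and cluster, members at 0 in 1 whole group and above 1 FPKM throughout another, and the list genes past the threshold or most abundant in their list. Alternatives were other pseudocounts, filters, scalings, fits and left-out libraries. For genes the tables give no counts, so depth enters only through the spread between libraries.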

Additional observations from a re-analysis of the deposited data

Results flagged for a closer look

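Outside the comparisons, 3 assembled-only entries and 3 assembled lncRNA transcripts of the clusters were listed at 0 in all PF libraries and reached 1 FPKM in another library. Both assembled entries named Hist1h1c reached it in AF with MNA replicate 1, with 1.45 FPKM (MSTRG.11206) and 1.43 FPKM (MSTRG.11207). Hist3h2bb-ps, a pseudogene, had 1.60 FPKM in the same library and 0 in the other 8. The lncRNA transcripts MSTRG.11204.1 and MSTRG.11226.1 were highest in AF with MNA replicate 1 as well, with 1.49 and 1.5 FPKM, the second beside 1.44 FPKM in AF replicate 1, and MSTRG.11217.1 in AF replicate 3, with 1.91 FPKM. AF with MNA replicate 1 and AF replicate 3 are the 2 libraries with the highest summed FPKM of lncRNA transcripts inside introns, 8934 and 9433, whereas that of AF replicate 1 was 3802. Their part in these values was not tested. Groups of 3 libraries are too small for the outlier test.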

How the results depend on the processing

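The counts of members past the threshold were 5 in AF against PF, 7 in AF with MNA against AF and 3 in AF with MNA against PF. With a mean of at least 2 FPKM they were 2, 2 and 0, which tests fewer members. With all 9 libraries in one fit they were 3 in AF against PF and 1 in AF with MNA against PF, and with any value above 0 the count in AF with MNA against AF was 4. Counting only members above 0 in all 6 libraries, chosen after seeing the data, gave 1 of 16, 0 of 11 and 0 of 13, beside 4.01%, 1.53% and 3.49% of all genes so filtered. Without single libraries the counts ran from 1 to 4, 1 to 7 and 1 to 3. In AF against PF it was 1 without PF replicate 2 and 2 without PF replicate 1 or AF replicate 1. In AF with MNA against AF it was 1 without AF replicate 2, 3 without AF replicate 1, and 2 and 4 without AF with MNA replicates 2 and 1. In AF with MNA against PF it was 1 without AF with MNA replicate 1 or 2. By adjusted p the counts were 1, 0 and 1. They were 2 and 3 in AF against PF without PF replicate 1 and AF replicate 3, 2 in AF with MNA against AF without AF replicate 3 or AF with MNA replicate 3, and 2 in AF with MNA against PF without PF replicate 3 or AF with MNA replicate 3. They ran from 1 to 3, 0 to 2 and 1 to 2 without single libraries, with 0 in AF against PF in the fit of all 9 libraries, and 0 in AF with MNA against PF with a mean of at least 2 FPKM, with all entries of the gene table or with the replicate block. Members without overlap between groups were 7, 3 and 2, which became 4, 1 and 0 with a mean of at least 2 FPKM, 5 in AF with MNA against AF with any value above 0, and 0 in both comparisons of AF with MNA over members above 0 in all 6 libraries. The cause was not tested.

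The log2 ratio of the H2B sums, AF over PF, was -1.43 without Hist1h2bc and -0.26 over members above 0 in all 9 libraries and -0.20 without Hist1h2bg (both chosen after seeing the data). That of AF with MNA over AF was 0.41, and 1.08 without Hist1h2bc, which holds the values of Hist1h2bg, listed at 0 throughout AF, and 0.25 without Hist1h2bg. The H2A ratio of AF with MNA over AF was 0.05 and became -0.29 without Hist2h2aa2, and the H3 ratio went from -0.23 to 0.44 over members above 0 in all 9 libraries.

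The replicate number as a block changed the counts past the threshold to 6, 6 and 4. Deviations of same-numbered libraries from their group means correlated between -0.08 and 0.06, and not every library correlated best with its own number, so that they share only a number. Over all tested genes, 527 passed in AF against PF, between 249 (limma coefficient as fold change) and 1183 (any value above 0) with all libraries kept. In AF with MNA against AF it was 242 (81 to 676), and in AF with MNA against PF 477 (228 to 1105). Of 422 values of single members with all libraries kept, 400 kept their side of the threshold and 22 lost it. The sign changed in 1 of the 422 (Hist1h4h in AF against PF, -0.02 to 0.02 with each library scaled to the same median) and in 27 of 284 values without 1 library, none of them past the threshold. Of 351 counts of the other lists 23 moved by over 1.5 times with all libraries kept, and 43 of 234 without 1 library. The lists of 3′ end processing and chaperones stayed at 0 without any 1 library.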
